A study of Mus musculus with 39 samples.

Results

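Quadriceps muscle of E47KO mice was compared with that of wild-type (WT) mice after 3 weeks of Dexamethasone (Dex), a synthetic glucocorticoid. The libraries were chosen by their sample titles, which gave 3 E47KO and 2 WT libraries out of 39 samples in the series. Both groups were adult males on a C57BL/6 background, on chow, with Dex at 10 µg/ml in the drinking water, and both were sacrificed after a glucose tolerance test. The E47KO mice were homozygous for the mutant allele in every tissue, and wild-type littermates were the controls. Because the knockout is global, a difference measured in muscle need not arise in muscle fibres. No untreated muscle was analysed here, so the comparison is between genotypes under Dex and not between Dex and its absence. The other Dex libraries used here came from liver (5) and white adipose tissue, WAT (4), and 3 of the muscle libraries carry the same number in their file names as a liver library.

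E47 is a splice product of Tcf3 and belongs to the E proteins, basic helix-loop-helix transcription factors that bind E-box DNA as dimers. In muscle, E proteins are the partners of the myogenic factors MyoD, myogenin, Myf5 and MRF4, and Id proteins hold them in inactive dimers. Glucocorticoids acting through the Glucocorticoid Receptor (GR) are known in muscle for driving protein breakdown, fibre atrophy and insulin resistance.

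The 5 libraries held between 40375225 and 45967218 reads assigned to genes, and 14962 genes passed the filter on low counts. The tissue label held: 12 skeletal muscle markers, such as Acta1, Ckm and Myh4, summed to between 174000 and 246000 CPM (counts scaled to library size) in each muscle library, against means of 24.1 CPM in liver and 74.0 CPM in WAT. Libraries stood apart in ways that genotype did not explain. The first principal component held 41.7% of the variance, and E47KO replicate 3 (15.8) and WT replicate 2 (46.8) lay on one side of it, with E47KO replicates 1 and 2 (-24.5 and -24.7) and WT replicate 1 (-13.4) on the other. The same split followed the numbers in the file names, where E47KO replicate 3 and WT replicate 2 carry high numbers and the other 3 libraries low ones. What these numbers stand for is not stated in the sources used here. WT replicate 2 in addition held liver transcripts, described with the hepatocyte markers.

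Tcf3 was checked first. Its levels in the 3 E47KO libraries were 9.08, 11.0 and 11.9 CPM, and in the 2 WT libraries 8.79 and 10.6 CPM, so the groups overlapped, with a log2 fold change of 0.14 (SE 0.16). This does not test the labels, because the count covers the whole gene and cannot separate E47 from its splice partner E12. The other E proteins showed like values: Tcf4 (E2-2) differed by a log2 of 0.15 (SE 0.12) and Tcf12 (HEB) by -0.04 (SE 0.11). The 4 Id inhibitors lay between log2 0.06 (Id1) and 0.33 (Id4). None of these 7 genes passed any threshold in either direction.

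Only 2 genes, 0.0134% of all genes tested, had a Benjamini-Hochberg adjusted p under 0.05 in edgeR, both with more reads in E47KO muscle. Both are processed pseudogenes, copies of a spliced mRNA that was written back into the genome. DESeq2 called 90 of the 25047 genes it tested. Gm15920 (ENSMUSG00000080893, mm10 chromosome 5, 130188395 to 130188796) is a copy of Ndufa12, which encodes a subunit of respiratory complex I. Gm9855 (ENSMUSG00000085666, mm10 chromosome 10, 42054113 to 42055306) is a copy of Tdg, which encodes thymine DNA glycosylase, a base excision repair enzyme. Neither parent is a copy's neighbour, and both parents lie on the chromosome of Tcf3, Tdg 2.22 Mb and Ndufa12 13.79 Mb from it. Aligned to the closest coding transcript of its parent, Gm15920 differed at 2 of 402 bases and Gm9855 at 9 of 1194. The longest stretch without a difference was 278 bases in the first pair and 756 bases in the second. Within the aligned stretch a read is assigned to a copy or its parent only by these few bases, while the rest of each parent transcript has no counterpart in the copy. The sequences below, from the GENCODE transcripts of the reference genome, show the 60-base coding window with the most differing bases in each pair, 5′ to 3′, with the differing bases in capitals.
Gm15920: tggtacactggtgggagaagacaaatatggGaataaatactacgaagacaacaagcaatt
Ndufa12: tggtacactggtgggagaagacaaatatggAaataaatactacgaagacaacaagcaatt
Gm9855: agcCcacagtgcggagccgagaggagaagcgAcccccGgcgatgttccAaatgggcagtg
Tdg: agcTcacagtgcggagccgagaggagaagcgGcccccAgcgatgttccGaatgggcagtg

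Gm15920 measured 27.0, 29.8 and 30.5 CPM in the E47KO libraries and 0.853 and 0.791 CPM in the WT libraries. The groups lay far apart with little spread within each, and edgeR gave a log2 fold change of 5.14 (SE 0.14, adjusted p = 0.000145). Its parent Ndufa12 went the other way, with 77.8, 81.8 and 87.6 CPM in E47KO and 105.6 and 111.2 CPM in WT (log2 -0.40, SE 0.11). Copy and parent together gave 104.7, 111.5 and 118.1 CPM in E47KO and 106.4 and 112.0 CPM in WT, so the summed level of the pair overlapped between genotypes (111.4 ± 6.7, SD, n = 3, against 109.2 ± 3.96, SD, n = 2). What differed was the split: the copy held 25.7% to 26.7% of the pair's reads in E47KO libraries and 0.706% to 0.801% in WT libraries.

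Gm9855 had 125, 160 and 154 reads in the E47KO libraries and 2 and 1 in the WT libraries. Measured against a floor of 3 reads per library its reads were at least 47.7-fold more in E47KO, with an adjusted p of 0.00676 in edgeR, and with 1 library left out it lost that call without E47KO replicate 1 or 3 or without WT replicate 1. Its parent Tdg measured 4.41, 3.90 and 3.63 CPM in E47KO and 11.0 and 10.7 CPM in WT, a log2 fold change of -1.45 (SE 0.14) that did not pass in edgeR (adjusted p = 0.158) and passed in DESeq2. Here the sum of the pair did not overlap between genotypes, with 7.52, 7.39 and 7.03 CPM in E47KO and 11.0 and 10.8 CPM in WT. The copy held 41.4% to 48.4% of the reads of the pair in E47KO and 0.23% to 0.396% in WT.

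The same splits were present in the other tissues. The share of the Ndufa12 pair on Gm15920 was 17.6% to 20.4% in E47KO liver and 17.2% to 31.6% in E47KO WAT, against at most 0.593% in WT liver and 0.786% in WT WAT. The share of the Tdg pair on Gm9855 was 33.9% to 39.6% in E47KO liver and 41.6% to 46.9% in E47KO WAT, against at most 0.73% in WT liver and 0 reads in WT WAT. The sums of the pairs varied by tissue. For the Ndufa12 pair they were 53.7 to 64.2 CPM in E47KO and 32.9 to 42.7 CPM in WT liver. In WAT they were 99.8 to 100.0 and 85.3 to 98.5 CPM. For the Tdg pair they overlapped in liver (8.78 to 10.7 and 8.15 to 13.2 CPM). In WAT they did not (3.34 to 3.67 and 9.53 to 9.56 CPM). The differences between muscle and the other tissues in the genotype effect on the copies were log2 -1.19 (SE 0.64) and -0.30 (SE 0.42) for Gm15920, against liver and WAT in turn, and -0.51 (SE 1.11) and -1.76 (SE 0.90) for Gm9855, and none passed in edgeR. The values for Gm9855 are fitted on WT libraries at or near 0 reads.

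**Figure D1:**
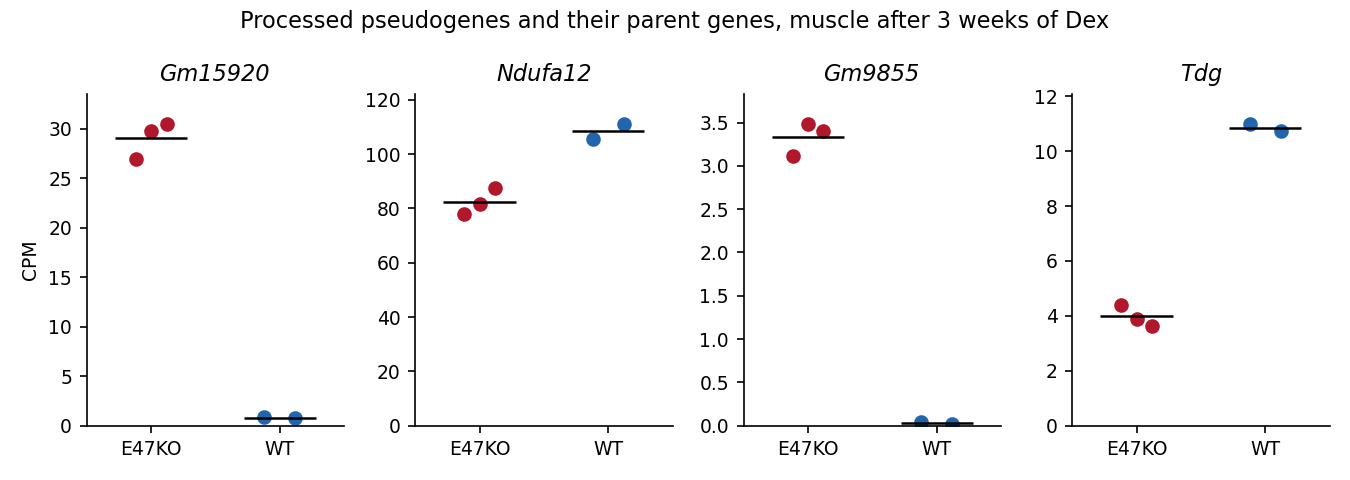
CPM of both pseudogenes and their parent genes in muscle, with 1 point per library (3 E47KO, 2 WT) and a line at each group mean. Gm15920 and Gm9855 sit near 0 in both WT libraries, and Ndufa12 and Tdg are lower in all 3 E47KO libraries than in both WT libraries.

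Genes around Tcf3 on chromosome 10 are of interest because a mutant allele travels with the DNA next to it. Of 646 annotated genes within 20 Mb of Tcf3, 327 were tested and 254 had at most 3 counts in every library. At an unadjusted p under 0.05 in edgeR, 16 were higher and 9 lower in E47KO, together 7.65% against 3.94% of all genes tested, and on the rest of the chromosome 4.64%. Their median log2 fold change was 0.01, against 0.02 for all genes. The tests of these genes did not pass after adjustment in edgeR. The 9 lower genes include Tdg and Ndufa12, whose reads are split with their copies, and the 16 higher include the adipocyte marker Cfd. DESeq2, which tested 471 genes within 20 Mb, called 7 of them, against 90 of 25047 over all genes. Besides Tdg, the leading gene was Nedd1, which encodes a protein that recruits γ-tubulin to centrosomes, with 13.6, 12.2 and 11.7 CPM in E47KO and 20.8 and 25.8 CPM in WT (log2 -0.90, SE 0.13). 1190007I07Rik, a small protein-coding gene next to Tdg, 2.20 Mb from Tcf3, measured 3.04, 3.16 and 2.39 CPM in E47KO and 6.36 and 7.29 CPM in WT (log2 -1.25, SE 0.19). Both genes were lower in every E47KO library than in either WT library, and both belong to the 10 lower genes picked for lack of overlap.

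Higher in E47KO were Dram1, a lysosomal membrane protein of the autophagy pathway, with 5.23, 5.27 and 6.66 CPM against 1.75 and 2.52 CPM (log2 1.42, SE 0.24), and A930033H14Rik with 4.43, 4.62 and 3.27 CPM against 1.73 and 1.38 CPM (log2 1.40, SE 0.25). These genes did not share a pattern across tissues. Reads counted on Tdg were lower in E47KO also in liver (log2 -0.76, SE 0.24) and WAT (-2.28, SE 0.20). The sum of Tdg and its copy Gm9855 overlapped between genotypes in liver but not in WAT, as given above. Nedd1 stood at log2 -0.17 in both other tissues (SE 0.19 in liver, 0.17 in WAT), and Dram1 at -0.80 (SE 0.56) in liver and 0.01 (SE 0.15) in WAT. For 1190007I07Rik the values were 0.405 (SE 0.194) in liver and -0.671 (SE 0.218) in WAT. Hal, which encodes histidine ammonia-lyase and was chosen after its values were seen, lies 13.08 Mb from Tcf3 near Ndufa12 and was higher in E47KO both in muscle (log2 3.25, with 3.86, 5.30 and 2.87 CPM against 0.0875 and 0.766 CPM) and in WAT (log2 3.52).

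**Figure D2:**
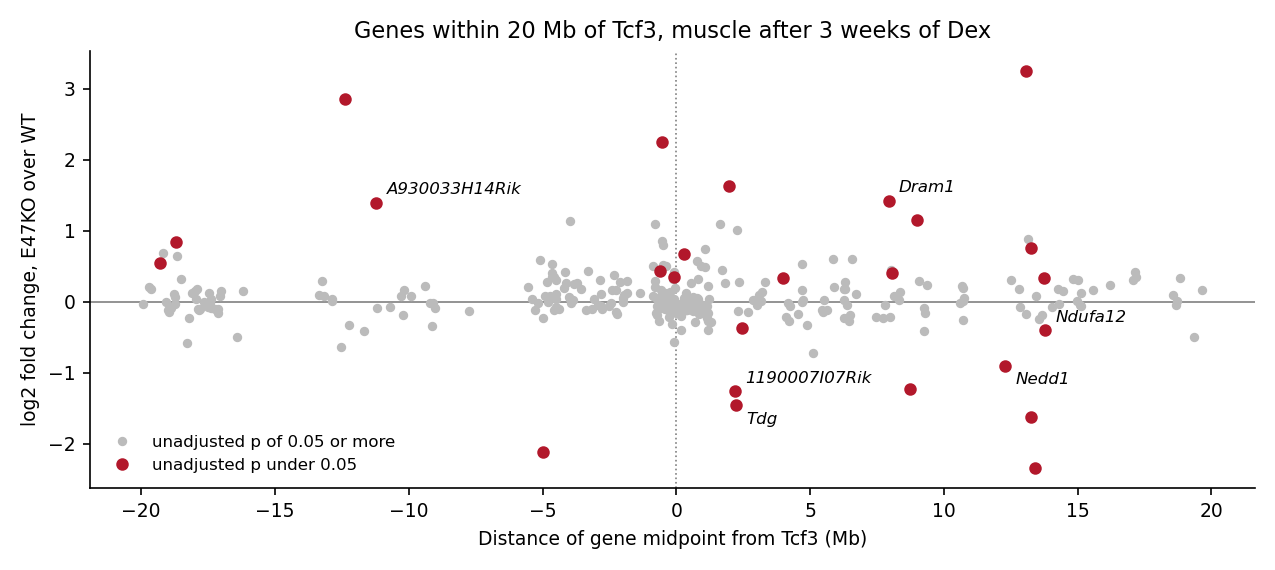
log2 fold change (E47KO over WT) in muscle of the 327 tested genes within 20 Mb of Tcf3, against the distance of each gene's midpoint from Tcf3 in Mb, with genes at an unadjusted p under 0.05 in red. Red points lie on both sides of 0, and several sit between 12 and 14 Mb, where Nedd1 and Ndufa12 are.

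Across all genes, the genotypes differed little relative to the spread within them. With an unadjusted p under 0.05 and 1.3-fold or more between genotypes, called the display threshold here, 390 genes were higher (2.61%) and 110 lower (0.735%) in E47KO, 3.34% in all. Without WT replicate 1 these were 443 higher and 516 lower, and without both libraries of high file-name numbers no gene passed after adjustment in edgeR (601 at an unadjusted p under 0.05). Within every gene list described from here on, 0 of 490 list genes tested other than the copies and their parents passed the adjusted threshold in edgeR. In DESeq2 16 of 521 passed, against 90 of 25047 over all genes. In edgeR 36 were higher and 18 lower at an unadjusted p under 0.05. The counts that follow are at that unadjusted threshold, where 2.91% of all genes were higher and 1.04% lower.

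Of the cell type and pathway lists, the adipocyte markers had the highest median log2 fold change. All 16 adipocyte markers were higher in E47KO muscle, 15 of them at an unadjusted p under 0.05, with a median log2 fold change of 1.97 and a range of 0.49 to 3.62. The E47KO libraries did not overlap the WT libraries in 15 of the 16, where 9.5% of all genes tested were above WT without overlap. Their summed level was 1950, 1370 and 1980 CPM in E47KO and 964 and 961 CPM in WT. Relative to the mean sum in WAT these were 3.31%, 2.33% and 3.35% in E47KO muscle and 1.64% and 1.63% in WT muscle. In bulk tissue, more fat cells in a sample and more RNA of these genes per cell cannot be told apart, and the amount of fat dissected with each muscle was not measured.

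Among the secreted products of adipocytes, adiponectin (Adipoq) measured 47.9, 57.9 and 65.6 CPM in E47KO and 5.05 and 19.4 CPM in WT, a log2 fold change of 2.23 (SE 0.53). Leptin (Lep), the satiety hormone, measured 10.4, 8.89 and 20.9 CPM in E47KO and 1.60 and 3.11 CPM in WT (log2 2.51, SE 0.48). Adipsin (Cfd), the complement factor D that also lies 0.53 Mb from Tcf3, measured 136, 67.7 and 102 CPM in E47KO and 6.43 and 36.5 CPM in WT (log2 2.25, SE 0.71). All 3 genes were at their lowest in WT replicate 1, and every E47KO library was above both WT libraries.

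The proteins that coat and hold lipid droplets followed. Perilipin 1 (Plin1) measured 11.8, 16.9 and 13.6 CPM in E47KO and 1.07 and 3.56 CPM in WT (log2 2.61, SE 0.47), which passed in DESeq2 after adjustment. Cidec measured 62.7, 44.6 and 72.1 CPM against 5.62 and 16.8 CPM (log2 2.42, SE 0.47). Plin4, which myofibres also express, was the most abundant of the list and the only member whose groups overlapped, with 1162, 646 and 1080 CPM against 759 and 612 CPM (log2 0.49, SE 0.26). Without Plin4 the summed level was 788, 725 and 896 CPM in E47KO and 205 and 348 CPM in WT.

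Genes of lipid breakdown and its control were on the same side. Adrb3, the β3-adrenergic receptor of adipocytes, had the largest log2 fold change of the list, 3.62 (SE 0.62), with 5.30, 4.21 and 5.11 CPM against 0.109 and 0.692 CPM. Hormone-sensitive lipase (Lipe) measured 41.4, 41.6 and 47.1 CPM against 18.2 and 25.3 CPM (log2 1.00, SE 0.17). Pde3b, the phosphodiesterase through which insulin restrains lipolysis, measured 19.5, 15.1 and 14.8 CPM against 2.47 and 4.69 CPM (log2 2.21, SE 0.29), which passed in DESeq2 after adjustment. Prkar2b, a regulatory subunit of protein kinase A, measured 12.2, 12.6 and 13.97 CPM against 1.71 and 3.73 CPM (log2 2.26, SE 0.32). The fatty acid carrier Fabp4 measured 296, 328 and 362 CPM against 146 and 176 CPM (log2 1.03, SE 0.14). In each of these 5 genes every E47KO library was above both WT libraries. Pde3b, Prkar2b and Fabp4 belong to the 10 higher genes picked for lack of overlap.

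Among the other higher genes with the smallest p values were Nat8l (log2 2.57, SE 0.33), Ces1d (1.02, SE 0.14), Itih5 (1.17, SE 0.16), Thrsp (1.05, SE 0.15) and Cmklr1 (1.07, SE 0.15). Nat8l makes N-acetylaspartate, Ces1d is a carboxylesterase that hydrolyses triglyceride, Itih5 is a matrix protein, Thrsp is a nuclear protein of lipogenic tissue and Cmklr1 is the receptor of the adipokine chemerin. In WAT itself the genotypes did not show differences of this size. The log2 fold changes there were -0.01 (SE 0.27) for Nat8l, 0.03 (SE 0.13) for Pde3b and 0.01 (SE 0.22) for Plin1. Fabp4 stood at -0.17 (SE 0.26) and Prkar2b at -0.15 (SE 0.15). Itih5 (0.133, SE 0.196), Thrsp (-0.093, SE 0.242) and Cmklr1 (0.112, SE 0.165) were likewise small in WAT. Ces1d was higher in E47KO also in WAT (0.371, SE 0.14) and in liver (1.303, SE 0.492). In liver Itih5 (-0.018), Thrsp (-1.177) and Cmklr1 (-0.397) were not higher.

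**Figure D3:**
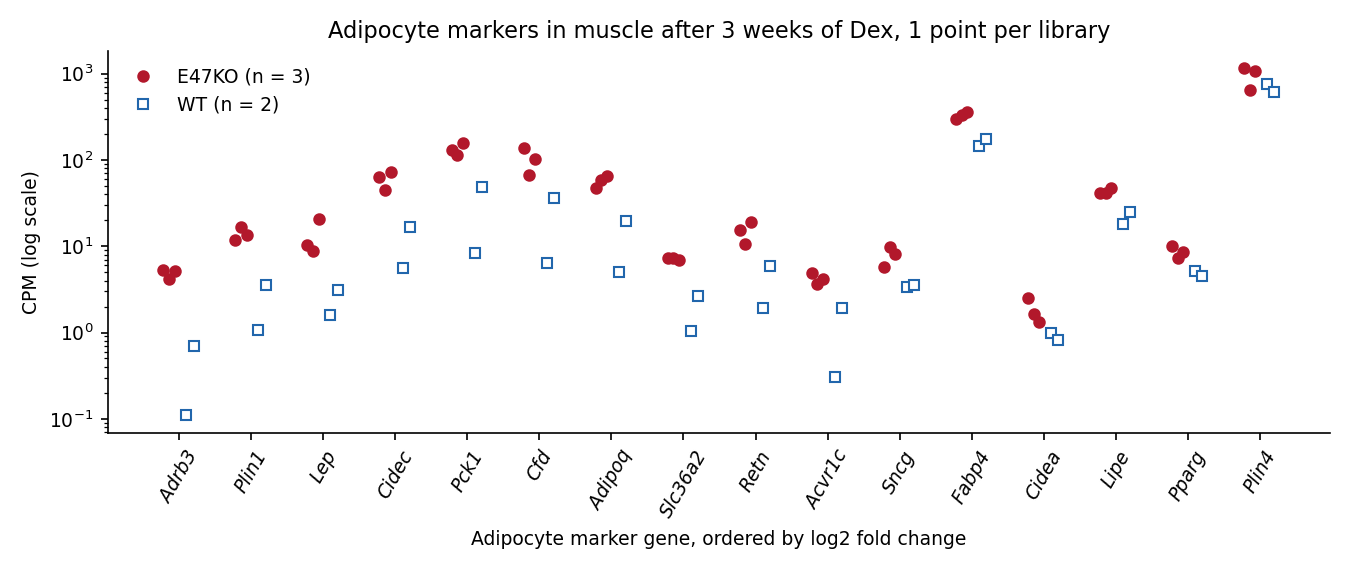
CPM of the 16 adipocyte markers in muscle on a log axis, ordered by log2 fold change, with filled circles for the 3 E47KO libraries and open squares for the 2 WT libraries. In all genes but Plin4 the E47KO points lie above both WT points.

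The direction of the adipocyte list did not depend on which library was used. All 16 genes were higher in E47KO after leaving out any 1 of the 5 libraries, and 13 to 16 of them stayed at an unadjusted p under 0.05, with medians from 1.41 (without WT replicate 1) to 3.00 (without WT replicate 2). Without both libraries of the high file-name numbers the median was 2.76 and 14 of 16 were at that threshold. Where these fits leave 1 WT library, its spread is assumed to be that of the E47KO libraries. Of the brown adipocyte genes, all 5 tested were higher in E47KO, with a median of 0.56 and 2 without overlap, and Cidea, also an adipocyte marker, was at the unadjusted threshold. Ucp1, the uncoupling protein that defines brown fat, had at most 3 counts in every library.

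A wider class of genes was counted in the same way. Genes with at least 1 CPM in WAT and a level there at least 4-fold over liver, a class set after the values were seen and without using the muscle libraries, were 22.7% of the genes tested but 228 of the 390 higher genes (58.5%). Of the 110 lower genes, 21 (19.1%) belonged to it. Of the 82 genes that DESeq2 called higher, 61 belonged to this class, as did 15.4% of the 25047 genes it tested. The class holds any gene that is low in liver and not only genes of fat cells, and the source of its reads in muscle was not tested.

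Genes of fatty acid synthesis and triglyceride assembly are active in adipocytes and myofibres alike. Of 17 tested, 14 were higher and 3 lower in E47KO, 6 of the higher ones at an unadjusted p under 0.05, with a median log2 of 0.22. Scd1, the stearoyl-CoA desaturase, measured 213, 810 and 487 CPM in E47KO and 86.4 and 121 CPM in WT (log2 2.28, SE 0.54), and fatty acid synthase (Fasn) 36.9, 65.1 and 39.1 CPM against 22.1 and 27.6 CPM (log2 0.92, SE 0.27). Dgat1, which adds the last acyl chain of triglyceride, measured 15.2, 13.2 and 14.3 CPM against 8.88 and 9.81 CPM (log2 0.61, SE 0.12). Both regulators of the pathway in the list overlapped between genotypes, with log2 -0.32 (SE 0.27) for Srebf1 and 0.04 (SE 0.19) for Mlxipl. Whether these genes changed in fibres or moved with the adipocyte markers was not tested.

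Hsd11b1, the enzyme that regenerates active glucocorticoid inside cells, was higher in E47KO muscle, with 13.0, 13.1 and 22.1 CPM against 3.39 and 6.55 CPM (log2 1.70, SE 0.36; DESeq2 called it). It passed in edgeR once the range of file-name numbers was a covariate, as did Lep. In WAT Hsd11b1 averaged 707 CPM, with a log2 fold change of -0.16 (SE 0.26). Whether its level in muscle moved with the adipocyte markers was not tested. The receptors overlapped between genotypes: Nr3c1 (GR) measured 131, 111.4 and 107 CPM in E47KO and 117 and 128 CPM in WT (log2 -0.08, SE 0.13), and the mineralocorticoid receptor Nr3c2 stood at -0.10 (SE 0.22). Of 11 tested genes of GR and steroid handling, Hsd11b1 was the only one at an unadjusted p under 0.05.

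The classical GR target genes, which Dex is known to induce in many tissues, split in both directions. Of 18 tested, 8 were higher and 10 lower, with a median log2 of -0.13 and 2 genes at the unadjusted threshold in each direction. Angptl4, an inhibitor of lipoprotein lipase that adipocytes also make, measured 43.1, 21.1 and 37.1 CPM in E47KO and 8.59 and 15.2 CPM in WT (log2 1.51, SE 0.37), and Mt2 measured 56.8, 11.8 and 43.6 CPM against 15.1 and 12.2 CPM (log2 1.45, SE 0.60). Lower in every E47KO library were Tsc22d3 (GILZ), a mediator of the anti-inflammatory action, with 290, 342 and 324 CPM against 366 and 490 CPM (log2 -0.43, SE 0.16), and Nfkbia with 15.9, 16.9 and 17.1 CPM against 19.5 and 20.98 CPM (log2 -0.28, SE 0.10). Fkbp5, often read as a sign of GR activity, varied more within E47KO (213, 65.1 and 212 CPM) than between genotypes (126 and 99.1 CPM in WT; log2 0.54, SE 0.48). E47KO replicate 2 was low in Fkbp5, Mt2, Pdk4 and Cdkn1a alike. Without that library 9 of the 18 targets were higher and 9 lower, with a median of 0.0. At the unadjusted threshold 5 were higher and 2 lower, against 429 and 160 of 14652 over all genes.

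The atrophy programme showed no common direction. Of 22 tested genes 12 were higher and 10 lower, with a median log2 of 0.10. Without E47KO replicate 2, 15 were higher and 7 lower (median 0.19). Of these 5 were higher at the unadjusted threshold, against 429 of 14652 over all genes. Without E47KO replicate 1, 10 were higher and 12 lower (median -0.06). The muscle ubiquitin ligases overlapped between genotypes: Trim63 (MuRF1) measured 2244, 1243 and 2451 CPM in E47KO and 2184 and 1978 CPM in WT (log2 -0.07, SE 0.28), and Fbxo32 (atrogin-1) 2634, 1533 and 2313 CPM against 2400 and 2472 CPM (log2 -0.17, SE 0.23). Bcat2, which starts the breakdown of branched-chain amino acids, was higher without overlap (log2 0.29, SE 0.11). Myostatin (Mstn), the brake on muscle growth, measured 26.6, 26.5 and 43.5 CPM in E47KO and 41.1 and 55.0 CPM in WT (log2 -0.58, SE 0.25).

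The myogenic regulators, partners of E proteins, gave small differences. Of 15 tested, 8 were higher and 7 lower, with a median log2 of 0.05. Myf5, the determination factor kept by satellite cells, was the only one at the unadjusted threshold, with 1.62, 1.57 and 1.64 CPM in E47KO and 0.875 and 1.16 CPM in WT (log2 0.66, SE 0.25). Myod1 (log2 0.38, SE 0.38), Myog (0.13, SE 0.43) and Myf6 (-0.12, SE 0.20) overlapped between genotypes, and E47KO replicate 3 had the highest value of Myod1 (22.6 CPM) and Myog (11.9 CPM) of all 5 libraries. Pax7, the satellite cell factor, stood at log2 0.18 (SE 0.27).

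Fibre type genes separated the libraries, but not by genotype. The 14 slow fibre genes summed to 1560 and 1640 CPM in E47KO replicates 1 and 2 and to 1910 CPM in WT replicate 1, but to 322 CPM in E47KO replicate 3 and 329 CPM in WT replicate 2. Slow myosin, Myh7, measured 287, 234 and 2.41 CPM in E47KO and 406 and 37.4 CPM in WT, and fast IIa myosin, Myh2, measured 3948, 3414 and 1190 CPM in E47KO and 2765 and 673 CPM in WT. In both genes the 2 libraries with high file-name numbers were the lowest of their genotype. As the groups hold 1 library each of that kind, the genotype comparison of the slow genes had a median of log2 -0.09 and 0 genes at an unadjusted p under 0.05 among 14 in edgeR, and 0 passed in DESeq2 after adjustment. This depended on the libraries: with the file-name range as a covariate 7 of 14 were lower at the unadjusted threshold (median -0.38), without both libraries of high numbers 5 were lower (median -0.37), without WT replicate 1 all 14 were higher with 5 at the threshold (median 1.98), and without WT replicate 2 all 14 were lower with 0 at it (median -0.69). Fast IIb myosin, Myh4, the most abundant of the fast fibre genes, measured 77020, 66490 and 81870 CPM in E47KO and 52440 and 101500 CPM in WT (log2 -0.04, SE 0.28), and the fast list had a median of -0.08, which ran from -0.31 without WT replicate 1 to 0.08 without WT replicate 2. Tnnc2, the fast troponin C, was counted at under 1 CPM in every library, while its partners Tnni2 and Tnnt3 had at least 7135 and 17010 CPM, so its count was not read as a level.

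**Figure D4:**
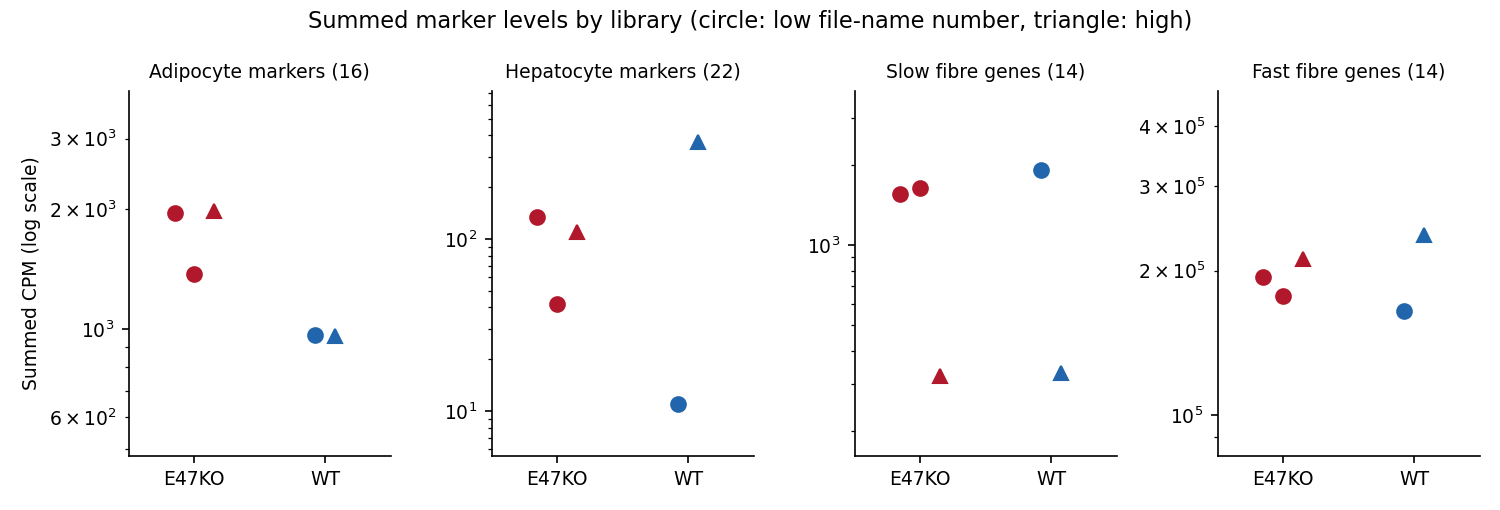
Summed CPM, on log axes, of 4 marker lists in each muscle library, with circles for libraries of low and triangles for those of high file-name numbers. The adipocyte sums separate by genotype, the hepatocyte sum is highest in WT replicate 2 (364 CPM), and the slow fibre sums separate by file-name number.

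Liver transcripts were high in WT replicate 2, less so in E47KO replicate 3, and set the direction of a whole list. Of 21 tested hepatocyte markers 20 were lower in E47KO, 11 at an unadjusted p under 0.05, with a median log2 of -3.98. None was free of overlap between genotypes. Albumin (Alb) measured 0.597, 0.785 and 7.08 CPM in E47KO and 1.115 and 129 CPM in WT, and apolipoprotein B (Apob) 0.0498, 0.0654 and 0.796 CPM against 0.0656 and 13.7 CPM. Only WT replicate 2 was high, followed by E47KO replicate 3. Without Cyp2e1, which fat also expresses, the markers summed to 3.48, 2.70 and 20.6 CPM in E47KO and to 3.96 and 305 CPM in WT. Left without WT replicate 2, the list reversed, with 19 of 19 tested genes higher in E47KO and a median of 1.24, so the lower values were those of 1 library. Without E47KO replicate 3 as well, 5 genes were tested, with 2 higher, 3 lower and a median of -0.7. Of the 110 lower genes at the display threshold, 33 (30.0%) had at least 1 CPM in liver and a level at least 4-fold over WAT, a class that made up 4.97% of the genes tested, and without WT replicate 2 these were 8 of 103 (7.77%).

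Among the genes lower without overlap, where 7.44% of all genes tested lie, those with the smallest p and a mean of at least 1 CPM were Tdg, Nedd1, 1190007I07Rik, Klk1b26, Slc15a2, Hsph1, Casp12, Ier5, Lpin2 and P4ha1. None of these 10 passed in edgeR after adjustment, and DESeq2 called 7 of them, all but Slc15a2, Lpin2 and P4ha1. Slc15a2, a proton-coupled peptide transporter, measured 0.373, 0.153 and 1.90 CPM in E47KO and 10.0 and 12.8 CPM in WT (log2 -3.80, SE 0.80). Of these 10 genes it had the largest log2 fold change. Klk1b26, a kallikrein, measured 1.34, 2.79 and 2.23 CPM against 5.53 and 6.47 CPM (log2 -1.50, SE 0.31). Hsph1, a heat shock chaperone of the HSP110 family, measured 126, 120 and 139 CPM against 173 and 195 CPM (log2 -0.52, SE 0.12), and Casp12, a caspase of the endoplasmic reticulum, 9.31, 12.6 and 12.5 CPM against 17.7 and 29.2 CPM (log2 -1.03, SE 0.24). Lpin2, a phosphatidate phosphatase, measured 4.28, 4.60 and 4.07 CPM against 6.34 and 6.597 CPM (log2 -0.58, SE 0.15). The immediate early genes Ier5 (log2 -0.99, SE 0.24), Myc (-0.62, SE 0.22) and Jun (-0.42, SE 0.17) were lower in every E47KO library, while of the 19 immediate early genes of the list 8 were higher and 11 lower.

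Few genes of fuel use were at the unadjusted threshold with genotype alone in the fit, though for fatty acid oxidation this depended on the fit. Of 24 fatty acid oxidation genes 22 were higher in E47KO, with a median log2 of 0.29, and 1 passed the unadjusted threshold: the fatty acid transporter Cd36, which adipocytes and endothelium also express, with 616, 483 and 454 CPM against 380 and 324 CPM (log2 0.56, SE 0.17). Libraries of high file-name numbers were low in this list: E47KO replicate 3 was the lowest E47KO library in 19 of the 24 genes, and WT replicate 2 was below WT replicate 1 in 21. With the replicate number as a block, 13 of 24 were higher at the unadjusted threshold, against 597 of 14962 over all genes. Without E47KO replicate 3 these were 11 of 24, against 549 of 14737. The list median stayed between 0.18 and 0.44 with any 1 library left out. The 75 subunits of oxidative phosphorylation had a median of 0.03, with 49 higher, and Ndufa12, the parent of the pseudogene above, was the only one at the unadjusted threshold. Glycolysis and glycogen genes had a median of -0.04 (-0.26 without WT replicate 1 and 0.16 without WT replicate 2) and 0 of 20 at that threshold in edgeR, and 0 passed in DESeq2 after adjustment. In insulin signalling 1 of 20 was at the threshold, Gsk3b, a kinase that insulin inhibits, with 110, 86.6 and 94.9 CPM against 120 and 134 CPM (log2 -0.39, SE 0.13). The insulin-regulated glucose transporter Slc2a4 (GLUT4) measured 505, 452 and 497 CPM in E47KO and 450 and 427 CPM in WT (log2 0.14, SE 0.11), and the insulin receptor Insr stood at 0.06 (SE 0.24).

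Circadian clock genes had a median of -0.11, with 12 of 19 lower. Tef, an output factor of the clock, was lower without overlap (279, 326 and 295 CPM against 358 and 374 CPM, log2 -0.29, SE 0.11), and Npas2, a partner of Bmal1, was higher without overlap (log2 0.87, SE 0.35). Cholesterol synthesis genes had a median of 0.03 with 1 of 23 at the unadjusted threshold, Pmvk (log2 0.40, SE 0.15). The genes of the neuromuscular junction and denervation had a median of 0.02 and 0 of 16 at the threshold in edgeR, with 0 passing in DESeq2 after adjustment. Sarcolipin (Sln), an inhibitor of the calcium pump SERCA, gave the smallest p of them, with 3.86, 2.66 and 4.22 CPM against 3.72 and 10.8 CPM (log2 -1.01, SE 0.44), and only WT replicate 2 was high.

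E47 is needed for B cell development, so B cell genes were read for each library. They were scarce in both genotypes: 7 of 16 markers had at most 3 counts in every library, among them Ms4a1 (CD20), Pax5 and Cr2, and only 2 were tested. Ighm, the heavy chain of immunoglobulin M, measured 7.39, 29.4 and 22.5 CPM in E47KO and 41.2 and 65.2 CPM in WT (log2 -1.43, SE 0.51) and did not overlap between genotypes. Igkc, the κ light chain, was counted at 0 in all 3 E47KO libraries and at 0.131 and 0.346 CPM in WT. Apart from Ighm the list summed to 1.02, 0.959 and 1.02 CPM in E47KO and 0.984 and 1.68 CPM in WT. T cell markers were at the same low level, with sums between 2.14 and 3.01 CPM in all libraries.

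Stromal and immune cell lists were mostly on the higher side in E47KO with small values. All 12 macrophage markers were higher with a median log2 of 0.33, and none was at an unadjusted p under 0.05 in edgeR or passed in DESeq2. The 12 fibroblast and fibroadipogenic progenitor markers were all higher with a median of 0.37, and Dpt (29.2, 41.6 and 32.3 CPM against 20.1 and 24.7 CPM, log2 0.62, SE 0.18) and Gsn (log2 0.45, SE 0.18) were at the threshold. Of the collagen and matrix list 17 of 18 were higher (median 0.26), led by the basement membrane chains Col4a1, with 90.7, 104 and 102 CPM against 69.4 and 62.7 CPM (log2 0.58, SE 0.12), and Col4a2 (log2 0.40, SE 0.12). The interferon genes were higher in 17 of 18, with a median of 0.38 and Ifit3 at the threshold (2.59, 5.40 and 3.96 CPM against 2.14 and 2.32 CPM, log2 0.84, SE 0.33). E47KO replicate 2 was the highest of the 5 libraries for 12 of 12 fibroblast, 10 of 12 macrophage, 16 of 18 collagen and 16 of 18 interferon genes. Without it, 6 of 18 collagen genes were higher (median -0.15), 8 of 12 fibroblast genes (0.17), 6 of 12 macrophage genes (0.03) and 10 of 17 interferon genes (0.02). Without WT replicate 1, 4 of 12 macrophage genes were higher (median -0.04).

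Of the other cell types, H2-Aa was the MHC class II gene at the threshold (log2 1.13, SE 0.37; list median 0.73), and Mbp the Schwann cell gene (log2 0.66, SE 0.25; list median 0.41). Endothelial (median 0.16), satellite cell (0.17), smooth muscle and pericyte (0.22), erythroid (0.29) and tendon (-0.10) lists had at most 1 gene at the threshold each, and the 12 skeletal muscle markers had a median of -0.09. The part of these cell types in the results on single genes was not tested.

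**Figure D5:**
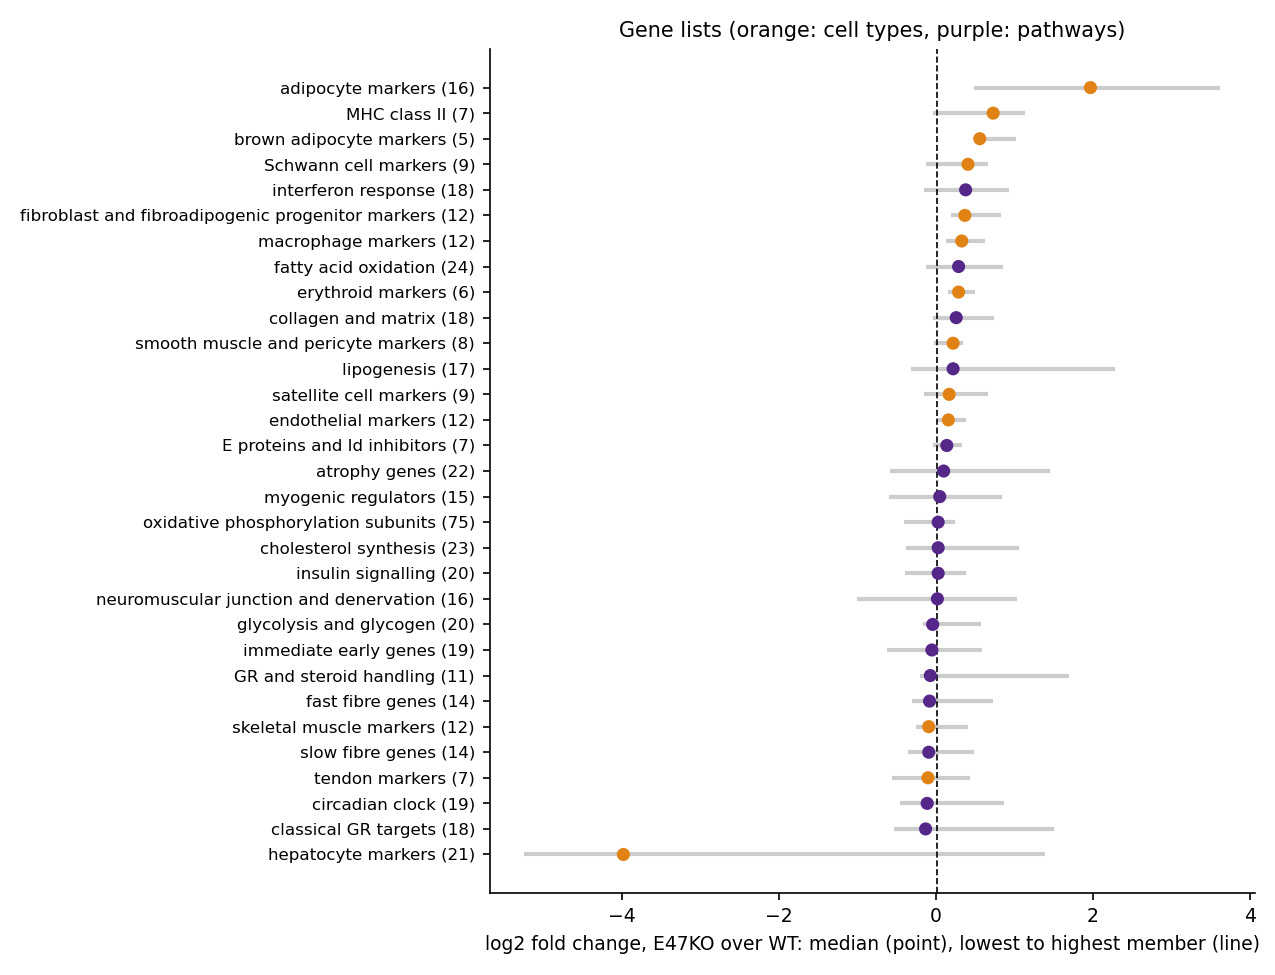
Median log2 fold change (E47KO over WT) of each gene list with at least 5 tested members (point; orange for cell type markers, purple for pathways) and its lowest to highest member (line), with the number tested in brackets and a dashed line at the median of all genes, 0.02. The adipocyte list lies farthest to the right at 1.97 and the hepatocyte list farthest to the left at -3.98, where most other medians are within 0.5 of 0.

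Whether the genotype effect in muscle differed from that in the other Dex tissues was tested in 1 fit of all 14 libraries. The fit held group means only and did not pair the 3 muscle libraries with the liver libraries that carry the same file-name number. Against liver, 0 of 18113 genes passed in edgeR, 834 were at an unadjusted p under 0.05 (4.6%) and 28 passed in DESeq2. Among the genes with the smallest p were Pde3b, with a difference of log2 2.12 (SE 0.32), and 1190007I07Rik (-1.68, SE 0.26). Against WAT, 2 genes passed in edgeR (0.011%), 574 were at an unadjusted p under 0.05 (3.17%) and 47 passed in DESeq2. Both passing genes, A530020G20Rik and Arxes2, are fat-expressed transcripts with means over 100 CPM in WAT of either genotype, and both were higher in E47KO muscle and lower in E47KO WAT.

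The E-box bound by E47 gives a way to set the muscle genes beside the DNA at their starts. Promoter windows of 300 bases (250 before to 50 after the start, RefSeq, GRCm38.p6) were searched for CAGGTG on both strands, that is CAGGTG or CACCTG. Of 10913 tested genes with a window, 21.03% held the word, against 52 of 270 higher genes (19.26%) and 11 of 82 lower genes (13.41%) at the display threshold. Of the 20 leading higher and lower genes 13 had a window and 3 held the word. Their 30-base stretches are shown because these are the leading genes in which the word was found, 5′ to 3′ on the strand of the gene, with the word in capitals.
Prkar2b (chr12:32061454-32061483, minus strand): gctcagggagctCAGGTGgagcgcgcggcc
Thrsp (chr7:97417646-97417675, minus strand): gggtagatggatCACCTGatacagacactg
Klk1b26 (chr7:44012697-44012726, plus strand): gcagttcctggaCACCTGttaccatgtggt
A match of these letters is a description of the sequence and not a binding site, and binding in muscle was not measured here.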

How the data were processed

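PolyA RNA was sequenced from unstranded libraries of whole quadriceps, liver and WAT. The authors mapped reads to mm10 with STAR 2.4.2a and deposited a whole-number count per gene for each sample, and the submitters' processing notes also name HTSeq without a role. Rows that name no gene (27.5% to 29.8% of reads) were left out. Tables of the authors' own comparisons, which hold fold changes and p-values, were not used.

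Genes were annotated with GENCODE M21 (45229 of 46078 matched). Counts were tested with the quasi-likelihood test of edgeR 4.0.16 in R 4.3.3 after TMM scaling and filterByExpr, with Benjamini-Hochberg adjustment, and with DESeq2 1.42.0 as the alternative. Differences between tissues came from 1 fit of 14 libraries. CPM use TMM-scaled library sizes, and a prior count of 2 entered the log2 CPM behind the principal components. The fits were tested on simulated data before use. No pair of libraries of a group agreed within sampling noise. The labels do not say that libraries of a group came from separate mice, so p-values measure the spread between these samples.

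The members and gene lists were chosen with earlier results of these data known. Genes were named by rule: Tcf3, genes past the adjusted threshold and their parents, the 10 higher and 10 lower genes with the smallest p among those of at least 1 CPM without overlap, and from each list, from the genes near Tcf3 and from each tissue difference up to 5 with the smallest p (for lists also up to 5 with the highest mean, and members at 3 counts or fewer). Ckm, Hal, Adipoq, Lep, Fasn, Srebf1, Mlxipl, Nr3c2, Fkbp5, Cdkn1a, Myod1, Myog, Myf6, Pax7, Tnnc2, Tnni2, Apob and Igkc fall outside this rule and were chosen after their values were seen. Alternatives were RLE scaling, other filters, DESeq2, a replicate block, the file-name range as a covariate, 1 fit of 14 libraries and leaving out each library. Leaving out both libraries of high file-name numbers was added after seeing the data. A gene that the rule names is not reported here.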

Additional observations from a re-analysis of the deposited data

Results flagged for a closer look

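For 2 genes the genotype effect in muscle differed from that in WAT by the test of the difference itself. A530020G20Rik, an antisense transcript on chromosome 3 whose reads cannot be separated from those of its partner in unstranded libraries, measured 2.81, 2.64 and 2.76 CPM in E47KO muscle and 0.459 and 0.815 CPM in WT muscle. Its log2 fold change was 2.11 in muscle and -0.49 (SE 0.14) in WAT, where the means were 135 and 188 CPM, and the difference was log2 2.56 (SE 0.28, edgeR adjusted p = 0.0182). Arxes2, an adipocyte-related gene on the X chromosome with the closely similar paralog Arxes1, between which reads may be split, measured 4.26, 2.90 and 3.89 CPM in E47KO muscle and 0.262 and 0.692 CPM in WT muscle. Its log2 fold change was 2.96 in muscle and -0.41 (SE 0.11) in WAT, where the means were 193 and 258 CPM, and the difference was log2 3.34 (SE 0.41, edgeR adjusted p = 0.0456). Both genes are far more abundant in WAT than in muscle, and the adipocyte markers were higher in the same 3 E47KO muscle libraries. The part of fat in these differences was not tested.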

How the results depend on the processing

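Against 2 genes past the adjusted threshold in muscle, 37 passed without a filter on low counts, 90 with DESeq2, 4 with the file-name range as a covariate, 14 in 1 fit of all 14 Dex libraries, 1 with the replicate block, 1 to 8 with 1 library left out, and 0 without both libraries of high file-name numbers. Against 500 genes at the display threshold there were 879 without the filter (539 higher and 340 lower), 757 with the replicate block, and 409 to 959 with 1 library left out. Libraries of the same replicate number deviated with correlations of 0.234 and -0.133. With only 2 WT libraries their deviations mirror each other, so this check cannot show or exclude a pairing. The block rests on a shared number alone. Under it Gm9855 had an adjusted p of 0.581 in edgeR. The difference from liver (0 genes) gave 12 without the filter, 28 with DESeq2 and 0 to 38 with 1 library left out. The difference from WAT (2 genes) gave 35 without the filter, 1 with a mean of at least 1 CPM, 47 with DESeq2 and 0 to 17 with 1 library left out. The causes of these shifts were not tested, except that the fits without a filter test more genes. With 1 library left out, the median of the hepatocyte markers ranged from -4.96 to 1.24, Alb from -6.55 to 1.33 and Apob from -5.45 to 2.17, all positive only without WT replicate 2. The circadian clock median ranged from -0.21 to 0.02, and was positive without E47KO replicate 2 and without WT replicate 1. In all, the median changed sign for 18 of 33 gene lists, most widely for the slow fibre genes (-0.69 to 1.98) after the hepatocyte markers, and the adipocyte markers stayed between 1.41 and 3.00. Of 61 named genes at an unadjusted p under 0.05, 59 kept their direction in every setting run and 33 also that threshold. Differences were not detectable at this depth for 7 of 16 B cell markers, which had at most 3 counts in every library.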
